A study of Mus musculus with 20 samples.

Results

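Ribosomal protein genes were followed across cultured mouse ovarian surface epithelial (OSE) cells with and without estrogen. The members were the protein-coding genes whose symbol is Rpl or Rps with a number and at most a short suffix, together with Rpsa, Rplp0, Rplp1 and Rplp2. Of 82 such genes in the annotation, 78 were in the count table of 14299 genes. They comprised 43 large subunit genes, 29 small subunit genes, the 3 P stalk genes and 3 paralogs (Rpl7l1, Rpl22l1 and Rps27l). Rps12 and the paralogs Rpl3l, Rpl10l and Rpl39l were not among the genes of the table, and the kinases named Rps6k were never part of the set. The processed pseudogene Rps12l1 was in the table with 57180 reads and was not a member. Whether reads of Rps12 lay on it was not tested, so absence from the table does not mean that Rps12 was silent. Rps3a1, Fau and Rpl36al encode ribosomal proteins under other names and were described with the other translation genes.

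The mouse ribosome joins a large and a small subunit, and each is a folded ribosomal RNA held by many small basic proteins, nearly all present in a single copy. The P stalk, built of Rplp0, Rplp1 and Rplp2, recruits the elongation factors. Ribosomal protein mRNAs are among the most abundant of any growing cell, and most begin with a run of pyrimidines (the 5′ terminal oligopyrimidine tract) through which mTOR and Larp1 control their translation. The ovarian surface epithelium is a thin sheet of flat to cuboidal cells around the ovary.

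Primary OSE cells in hormone-free medium for 48 hours went on to 100 nM E2 (estradiol) or to ethanol, its vehicle, at 0.0002%, and were collected after 15 days in culture. The cells were captured on 1 Fluidigm C1 chip, in which each column gave 1 library, with 10 control libraries (columns 1 to 10) and 9 E2 libraries (columns 11 to 20, of which column 13 has no cells in the tables). Each condition entered the chip as 1 cell suspension, so libraries of a condition are technical replicates and each p-value for E2 is about these 2 suspensions, which the chip side also separates. The authors' clustering of imputed values divided the 589 cells into 2 groups, here called cluster 1 and responsive cells. Control cells comprised 203 responsive and 126 cluster 1 cells, and E2 cells comprised 218 responsive and 42 cluster 1 cells. Of the E2 cluster 1 cells, 39 in 7 libraries were used, because a library had to hold at least 3 cells of a group.

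Of the 8 epithelial markers listed, Krt7, Upk3b and Wt1 were high in both groups of cells, at a mean of 1188 and 955 CPM (reads scaled to libraries of equal size) for Krt7 in responsive and cluster 1 cells. Krt19 was at 516.8 ± 137.3 CPM (SD, n = 19 libraries) in responsive cells and 23.2 ± 30.3 CPM (n = 17) in cluster 1, and Krt8 was at 466.6 and 263.2 CPM. Krt18 and Msln went the other way, at 344.9 and 633.8 CPM and at 32.0 and 297.3 CPM. Lgals7 was under 1 CPM in both. The collagen gene Col1a2 of the fibroblast list was at 12.8 ± 15.7 and 1885 ± 424 CPM. Among the other fibroblast markers, 3 had lower means in cluster 1, with Col1a1 at 167.7 and 84.9 CPM, Col3a1 at 652.8 and 259.2 CPM and Thy1 at 102 and 5.72 CPM. Dcn had a higher mean there, at 1304 ± 352 and 1689 ± 1258 CPM, and Pdgfra was at 6.84 and 6.04 CPM. The 6 fibroblast markers in the table summed to between 1983 and 2450 CPM in responsive control libraries and to between 2658 and 4348 CPM in control cluster 1. Star of the theca list was at 43.6 and 230.1 CPM, while its partner Cyp11a1 was under 1 CPM in both. Of the leukocyte list, Ptprc was at 2.22 and 0.906 CPM and the macrophage gene Cd68 at 63.5 and 22.5 CPM. Of the endothelial list, Pecam1 was at 547.1 and 458.9 CPM and Vwf at 3.19 and 2.54 CPM. The part that markers differing between the clusters play in the results below was not tested.

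Transcription starts are shown for 6 members that the comparisons return to, because the pyrimidine run is the feature this gene family is known for. They are RefSeq sequences on GRCm38.p6, 25 bases before the annotated start and 25 from it on, read 5′ to 3′ on the gene's own strand. Capitals mark the longest run of C and T that touches the 5 bases on either side of the start.
Rpl15 (chr14:18270962-18271011, minus strand): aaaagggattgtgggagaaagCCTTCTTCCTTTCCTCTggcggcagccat
Rpl35a (chr16:33056457-33056506, plus strand): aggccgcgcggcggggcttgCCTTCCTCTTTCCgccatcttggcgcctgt
Rps6 (chr4:86857343-86857392, minus strand): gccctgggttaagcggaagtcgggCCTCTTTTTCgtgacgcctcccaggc
Rpl22l1 (chr3:28805483-28805532, plus strand): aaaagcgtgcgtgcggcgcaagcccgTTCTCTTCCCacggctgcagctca
Rps15a (chr7:118116123-118116172, minus strand): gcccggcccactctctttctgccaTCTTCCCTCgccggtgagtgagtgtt
Rpl22 (chr4:152325701-152325750, plus strand): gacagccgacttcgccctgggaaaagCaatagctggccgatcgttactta
The runs were 17 bases long in Rpl15, 13 in Rpl35a, 10 in Rps6, 10 in Rpl22l1, 9 in Rps15a and 1 in Rpl22. Other starts are listed for Rpl35a, with runs of 4 and 1, and for Rpl22, with a run of 4, so a gene's run depends on which start is taken. Starts of some other members that the comparisons return to are not shown. Their runs were 2 in Rpl11 and Rpl24, 3 in Rpl5, 4 in Rpl13 and 5 in Rpl39. Rpl19 had starts with runs of 5 and 11. A run of 8 or more bases touched the start in 24 of the 69 starts listed for 58 members (34.8%), and in 9.72% of all 32851 starts of the reference. Of the genes with a start of 8 or more such bases shown, Rpl15 and Rpl35a were lower in cluster 1, and Rpl22l1, Rps15a and Rps6 were higher. A run is a description of the letters in the window and was not tested against any result.

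In responsive control cells the median member stood at 1159 CPM, with quartiles of 894 and 1706 CPM, while the median gene of the table stood at 17.9 CPM. Of the 154 genes above 1000 CPM, 51 were members. Reads of 43 members were found in every cell, and 74 members had a read in at least 95% of the cells. Per cell, the median number of members with a read was 78 in responsive control cells and 77 in the other groups. A cell without a read was therefore rare for these 74 members. The others were Rpl17, with a read in 92.2% of cells, Rpl19 (89.5%), Rpl12 (81.8%) and Rpl7l1 (61.1%).

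By CPM, which takes no account of length, Rps19, Rpl41, Rpsa, Rps4x and Rpl37a had the highest means over all libraries, from 4060 CPM for Rps19 to 2619 CPM for Rpl37a. In responsive control cells Rpsa (the laminin receptor that is also a small subunit protein) was at 4815 ± 362 CPM, Rpl41 at 4335 CPM and Rps19 at 3987 CPM (n = 10). The lowest means were those of Rpl12 (83.2 CPM), the paralog Rpl7l1 (90.5 CPM), Rpl34 (268.7 CPM), Rps7 (272.6 CPM) and Rpl35 (353.4 CPM). Rpl12 had a read in 81.8% of cells and Rpl7l1 in 61.1%. Per kilobase of the principal transcript, in responsive control cells, Rpl41 came first at 7449 CPM and Rplp1 second at 5668 CPM, and Rpl7l1 came last at 42.8 CPM. The reads come from the 3′ end, so the values per kilobase lower long transcripts. They also rest on the transcript chosen, the longest of the best principal rank, such as 5179 bases for Rps15a.

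Part of the low values came with reads on near-identical copies. A near copy was any gene of the table that shared at least 50% of the 31-base words in the last 300 bases of a member's transcript. There were 165 such genes, 153 of them pseudogenes, for 51 of the 78 members, and they held 2.23% of all reads beside the 10.1% on the members. For 7 members the copies held more reads than the member. These were Rps7 (87.2% of the reads of member and copies together), Rpl35 (81.1%), Rpl34 (77.0%), Rps2 (59.5%), Rps27 (58.8%), Rpl38 (57.1%) and Rps28 (52.3%). The levels of these genes are uncertain to that extent, and every comparison was repeated with the copies added to their member.

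The members held 10.3% ± 0.266 of all reads in responsive control cells (n = 10, from 10.0% to 11.0%, median 10.3%). In responsive E2 cells the share was 9.23% ± 1.43 (n = 9, from 5.87% to 10.4%, median 9.69%). In cluster 1 it was 11.0% ± 0.636 in control cells (n = 10, from 10.2% to 12.2%, median 10.9%) and 10.4% ± 2.53 in E2 cells (n = 7, from 5.25% to 13.1%, median 11.1%). The ranges overlapped between all 4 groups, and the SD of E2 responsive cells was several times that of control cells. Large and small subunit genes took 5.20% and 4.32% of reads in responsive control cells and 4.56% and 3.96% in responsive E2 cells. The share was higher in cluster 1 than in responsive cells in 14 of the 17 libraries that held both.

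**Figure D1:**
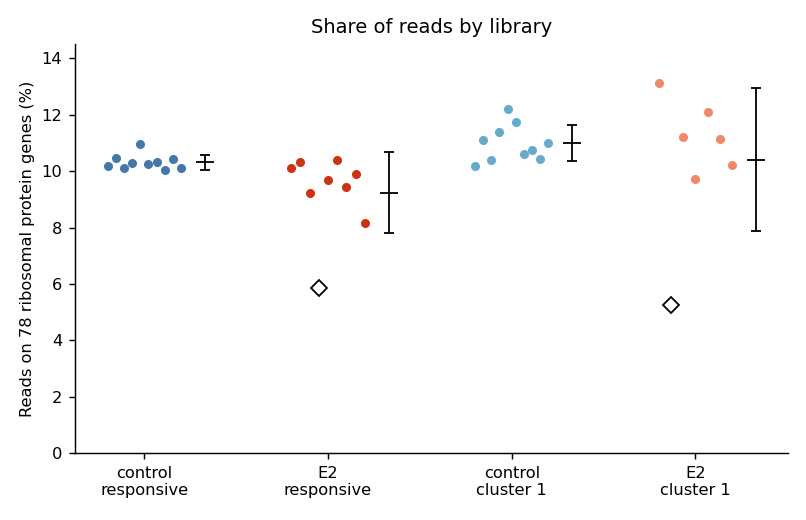
Share of all reads on the 78 ribosomal protein genes (y axis, %) for each library, by condition and group of cells. Points are libraries, the open diamond is E2 library 15, and bars give the mean and SD. The diamonds lie at 5.87% and 5.25%, below every other library.

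E2 library 15 had 5.87% of its reads on members in responsive cells and 5.25% in its 3 cluster 1 cells, whereas the next lowest E2 value was 8.18%. Without it the share was 9.65% ± 0.722 in responsive E2 cells (n = 8) and 11.3% ± 1.24 in E2 cluster 1 cells (n = 6), with SDs still above those of the control cells. Its cells had a median of 133935 reads, within the range of control libraries, but a median of 3429 genes, the lowest of all 19 libraries. Its share of mitochondrial reads, 2.49% by the median cell, was among those of the other E2 libraries, which ranged from 2.36% to 2.96%.

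The members did not move as a block in library 15. Against the mean of the other 8 E2 libraries, 64 of 78 members were lower in its responsive cells, with a median log2 difference of -1.25 on log2(CPM + 1). Rps27 was at 141 CPM in library 15, where the other E2 libraries ranged from 1399 to 2018 CPM. Rps29 was at 149 CPM against 1295 to 1891 CPM, and Rpl41 at 665 CPM against 2913 to 4435 CPM. Rps4x went the other way, at 9026 CPM against 2451 to 3648 CPM, and so did Rpl6, at 2547 CPM against 816 to 1365 CPM. Each of these values lay outside the range of the other E2 libraries.

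In responsive cells the difference went with the length of the transcript. All 18 members with a principal transcript of up to 600 bases were lower in library 15, with a median log2 difference of -2.42, and so were 52 of 57 other protein-coding genes of that length above 100 CPM (median -1.76). The median was -1.01 for 31 members of over 600 to 1000 bases and -0.77 for 29 members over 1000 bases, while for 1524 other genes over 1000 bases it was 0.19. Across the 78 members the Spearman correlation of length with the difference was 0.52 in library 15 and between -0.18 and 0.32 in the other E2 libraries. For 1764 other genes the correlation was 0.12 in library 15 and 0.44 in library 20, an E2 library in which 77 of 78 members had a negative difference with a median of -0.40. In the 3 cluster 1 cells of library 15 it was 0.31 for members, whose medians did not follow the order of length there (-2.53, -0.72 and -1.39 from the shortest to the longest). These are correlations across genes of 1 library, which are not independent replicates. Ribosomal protein transcripts are short, with a median of 882 bases against 2477 bases for the other genes above 100 CPM. For members, the longest transcript of the best principal rank was taken, which gave 5179 bases for Rps15a and 3706 for Rps20. These were at -2.12 and -2.03 in library 15, so the length groups and correlations rest on that choice. The part of transcript length in the results was not tested, and each main comparison below is given with and without library 15.

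**Figure D2:**
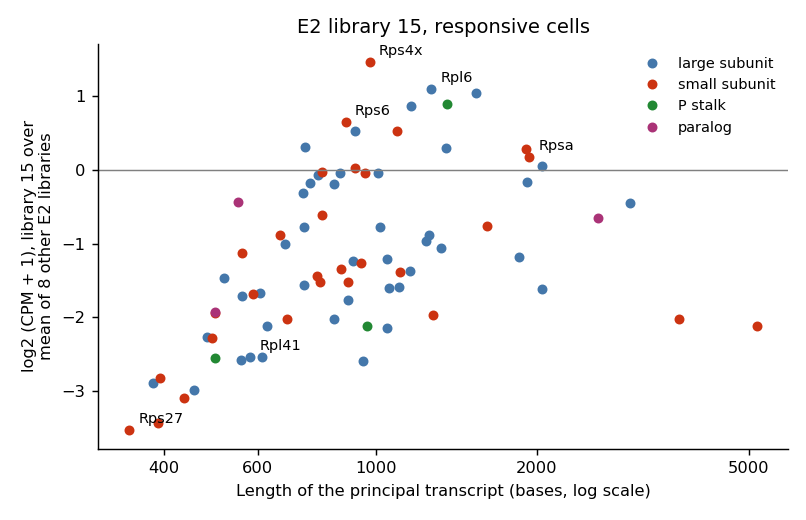
Difference between E2 library 15 and the mean of the 8 other E2 libraries in responsive cells, as log2 of CPM + 1 (y axis), against the length of the principal transcript in bases (x axis, log scale) for the 78 members. The shortest transcripts lie lowest, down to -3.54 for Rps27, while Rps4x lies at 1.46.

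The first comparison asked whether long E2 exposure changed ribosomal protein mRNAs in responsive cells. No member was called, where a call is an adjusted p below 0.05 with an absolute log2 fold change above 0.5 in edgeR's quasi-likelihood test. Over all 10265 genes tested, 0.848% were called higher and 0.526% lower. Of the 78 members, 13 had an unadjusted p below 0.05, as did 1015 of all genes. The log2 fold changes ran from -0.55 to 0.31, with a median of -0.12 beside 0.02 over all genes, and 65 of 78 were negative. The SEs ran from 0.0795 to 0.246 with a median of 0.152. For 48 members the 95% interval lay within 0.5 on either side of 0, and for 77 it lay within 1. DESeq2 called none either, beside 141 genes higher and 93 lower.

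Without library 15 the median SE fell to 0.0867 and the median log2 fold change was -0.06, beside 0.00 over all genes, with 51 negative values. No member was called, while 0.786% of all genes were called higher and 0.565% lower, and the 95% intervals of 75 members now lay within 0.5 of 0. At an adjusted p below 0.05 with no limit on the fold, 0.91% of all genes were higher and 0.69% lower, and 2 members passed, Rpsa lower and Rps28 higher. The second of these was chosen for mention after its value was seen.

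Rpsa was at 4235, 4841 and 5339 CPM (lowest, median and highest) in the control libraries and at 3540, 4030 and 4427 CPM in the E2 libraries. The ranges overlapped only between 4235 and 4427 CPM, and the highest E2 value was that of library 15. The log2 fold change was -0.27 (SE 0.0795, adjusted p = 0.104), and -0.29 (SE 0.0557, adjusted p = 0.00327 in edgeR) without that library. In cluster 1 the Rpsa fold change was -0.33 (SE 0.16, adjusted p = 0.662).
With its near copies added, the Rpsa fold change in responsive cells was -0.24 (adjusted p = 0.193).

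Rps28, a small subunit protein with a short transcript of 437 bases, was at 975, 1009 and 1135 CPM in control libraries. In E2 libraries other than library 15 it was at 1062, 1371 and 1664 CPM, and in library 15 at 156 CPM. The log2 fold change was 0.25 (SE 0.226, adjusted p = 0.839 in edgeR) over all libraries and 0.40 (SE 0.0805, adjusted p = 0.00482) without library 15. The control values and those of the other E2 libraries overlapped between 1062 and 1135 CPM, and 52.3% of the reads of this gene and its copies lay on the copies.

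Rpl13a, which also silences inflammatory transcripts when released from the ribosome, had a log2 fold change of -0.41 (SE 0.143, adjusted p = 0.252 in edgeR). Its control libraries were at 1228, 1435 and 1918 CPM and its E2 libraries at 504, 1190 and 1332 CPM, of which library 15 was the lowest and the next was at 869.9 CPM. Rps6, the small subunit protein that is phosphorylated downstream of mTOR, was at 978 ± 93.8 CPM in control and 989 ± 211 CPM in E2 responsive cells, a log2 fold change of 0.02 (95% interval -0.20 to 0.24). Rpl5 (-0.10, SE 0.112) and Rpl11 (-0.19, SE 0.106), which with 5S ribosomal RNA form the particle that binds Mdm2, and Rps3 (0.07, SE 0.104), which sits at the mRNA entry, did not pass the test. The P stalk genes had fold changes of -0.08 for Rplp0, -0.20 for Rplp1 and -0.18 for Rplp2, none past the test. Without library 15 these were -0.20, -0.06 and -0.05, so their order turned round, and none passed the test. The other fold changes without it were -0.31 for Rpl13a, -0.06 for Rps6, -0.10 for Rpl5, -0.16 for Rpl11 and 0.05 for Rps3.

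In cluster 1 no member was called for E2 against control. Over the 8340 genes tested, 0.036% were called higher and 0.048% lower. The members' median was -0.04 beside -0.06 over all genes, with 43 negative and 35 positive values, a median SE of 0.214 and 23 intervals within 0.5 of 0. An unadjusted p below 0.05 was found for 4 of the 78 members and for 622 of the 8340 genes. Of these 4, Rpl10a (-0.56, SE 0.18) and Rpsa had negative values, and Rps4x (0.47, SE 0.177) and Rpl24 (0.47, SE 0.227) positive ones. Without library 15 no member was called, beside 0.0342% of genes in each direction, the median was 0.03, the median SE fell to 0.146 and 51 intervals lay within 0.5 of 0. The fold change of Rps4x, which was at 8439 CPM in library 15, was then 0.25 (SE 0.129), that of Rpl24 0.59 (SE 0.184) and that of Rpl10a -0.55 (SE 0.163).
The interaction of E2 and cluster called no member in any setting, where 0.0175% of 11398 genes were called higher and 0.167% lower. An unadjusted p below 0.05 was found for 2 members and for 1244 of all genes. Without library 15 the shares were 0% and 0.164%.

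**Figure D3:**
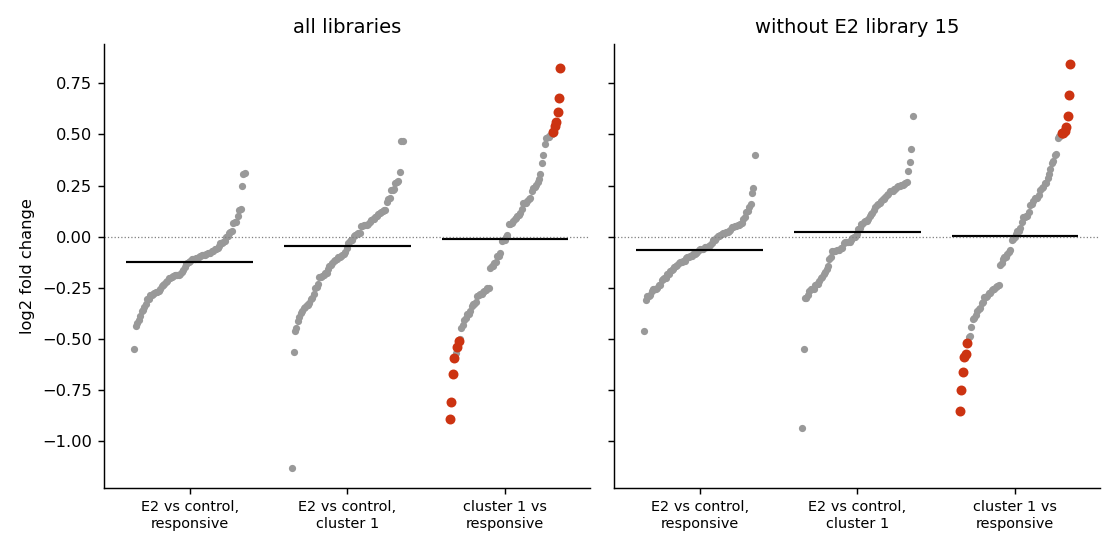
log2 fold changes (y axis) of the 78 members in 3 comparisons (x axis), sorted within each, with all libraries (left) and without E2 library 15 (right). Red points were called, and black lines are medians. Calls appear only between the clusters, on both sides of 0.

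The second comparison was between the clusters, across both conditions with a term for condition. Since the grouping of cells came from the expression of the same cells, members among it, these values describe the clusters and are not independent evidence. Of the 78 members, 12 were called, 6 higher and 6 lower in cluster 1. Over the 10597 genes tested, 6.12% were called higher and 9.81% lower. The members' median was -0.01 beside -0.06 over all genes, with 38 positive and 40 negative values.
The split of calls depends on the scaling. Scaling by library size alone or with DESeq2 gave 13 higher and 3 lower, moving the median of all genes to 0.07 and 0.03. Of all 10597 genes, 902 were called higher and 806 lower with library size alone, and 1133 and 1183 with DESeq2. In the main fit these were 649 and 1040. Rpl11, Rpl19 and Rpl24 lost their call there, and no called member changed sign. Of the 12, the 7 called in all 10 settings and with any 1 library left out were Rpl32, Rpl39, Rpl13 and Rpl5 (higher) and Rpl22, Rpl15 and Rpl35a (lower).
With cell labels made by k-means without the ribosomal protein genes, which agreed for 583 of 589 cells, 15 members were called, all 12 among them. Of the 10573 genes tested, 675 were then called higher and 1090 lower. Near copies and other translation genes stayed in that grouping. With so few labels changed the calls could hardly differ, so they are no independent evidence either. Without library 15, 13 were called, again with all 12 among them, beside 6.57% of genes called higher and 10.1% lower.

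Rpl32 (chr6:115805505-115808747 on GRCm38, minus strand), a large subunit gene, rose most. It was at 1099, 1336 and 1551 CPM in responsive control libraries (lowest, median, highest) and at 1406, 2298 and 2943 CPM in control cluster 1. In E2 libraries other than 15 it was at 1015, 1434 and 1628 CPM in responsive cells and 2094, 2432 and 3340 CPM in cluster 1. Within a library the cluster 1 cells were higher in 17 of 17. The log2 fold change was 0.82 (SE 0.127, adjusted p = 3.36e-06 in edgeR), and no near copy was found. Without library 15 the fold change was 0.84.

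Rpl39 (chrX:37082520-37085402), which lines the exit tunnel of the large subunit, was at 581, 818 and 861 CPM in responsive control libraries and at 901, 1067 and 1343 CPM in control cluster 1. The control ranges did not overlap, and 16 of 17 libraries were higher in cluster 1. In E2 libraries other than 15 it was at 595, 782 and 943 CPM in responsive cells and 1129, 1432 and 1656 CPM in cluster 1, again with no overlap. The exception was library 15, where Rpl39 was at 132 CPM in responsive cells and 104 CPM in cluster 1. The log2 fold change was 0.68 (SE 0.183), and 0.69 (SE 0.0816) without that library.
Rpl13 (chr8:123102350-123105244, 0.61), Rpl5 (chr5:107900502-107909005, 0.56) and Rps15a (chr7:118104372-118116188, 0.54) were the other core members called higher. Rps15a is the 1 small subunit gene among the 12. Of Rpl13 and Rpl5, 32.6% and 38.6% of the family's reads lay on copies. With copies added the log2 fold changes were 0.57 and 0.54.

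Rpl22 (chr4:152325742-152334071, plus strand) fell most, and its paralog Rpl22l1 (chr3:28805436-28807424, plus strand) rose. Rpl22 is a large subunit protein that cells can do without, and Rpl22l1 can take its place in the ribosome. In control libraries Rpl22 was at 440, 568 and 630 CPM in responsive cells and at 209, 292 and 417 CPM in cluster 1, with no overlap. Rpl22l1 was at 186, 375 and 436 CPM in responsive cells and 371, 494 and 638 CPM in cluster 1, with some overlap. In E2 libraries Rpl22 was at 181, 553 and 688 CPM in responsive cells and 23.5, 233 and 438 CPM in cluster 1, and library 15 gave the lowest value of both. The log2 fold changes were -0.89 (SE 0.177, adjusted p = 0.000227 in edgeR) and 0.51 (SE 0.119, adjusted p = 0.0015). Rpl22 was lower in cluster 1 in 17 of 17 libraries, and Rpl22l1 higher in 14 of 17. Without library 15 the fold changes were -0.85 and 0.52. Rpl22l1 lost its call without control library 5, and with no filter on low counts, as did Rps15a.

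The ratio of Rpl22l1 to Rpl22 reads does not depend on scaling between libraries. It was 0.641 ± 0.136 in responsive control cells (from 0.34 to 0.834) and 1.66 ± 0.386 in control cluster 1 cells (from 1.17 to 2.27). In E2 libraries other than 15 it was 0.661 ± 0.0886 (n = 8) and 1.92 ± 0.851 (n = 6). The ratio was above 1 in cluster 1 and below 1 in responsive cells in every library but library 15, and it was higher in cluster 1 in 17 of 17 libraries. In library 15 the ratio was 1.5 in responsive cells and 15.0 in cluster 1, the latter from 5 reads of Rpl22.
Between E2 and control the log2 ratio differed by 0.20 in responsive cells and by 0.58 in cluster 1 (exact two-sided permutation over libraries, p = 0.327 and p = 0.169, both 0.327 after adjustment over the 2 tests). Without library 15 the differences were 0.07 and 0.14, with exact permutation p = 0.694 and p = 0.528, both 0.694 after adjustment.

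The coding sequences of Rpl22 and Rpl22l1, 387 and 369 bases long in the GENCODE M21 principal transcripts, align over 368 bases with 71.2% identity, and the longest shared run is 26 bases, short of the 31-base words compared here. The most alike stretch of 60 bases is shown, with the 8 bases that differ in capitals.
Rpl22 (coding bases 231 to 290): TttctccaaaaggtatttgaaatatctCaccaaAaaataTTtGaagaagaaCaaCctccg
Rpl22l1 (coding bases 213 to 272): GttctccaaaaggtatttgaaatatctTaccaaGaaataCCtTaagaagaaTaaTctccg
No gene of the table was a near copy of Rpl22, and the 1 copy of Rpl22l1 held 0.128% of the reads of both.

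The ratio of Rps27l, a p53 target, to Rps27 was 1.03 ± 0.182 in responsive control cells and 0.648 ± 0.144 in control cluster 1 cells, and was higher in cluster 1 in 1 of 17 libraries. Rps27l had a log2 fold change of -0.32 (SE 0.156) and Rps27 of 0.49 (SE 0.191), neither called, with adjusted p = 0.167 and p = 0.0745 in edgeR, and 58.8% of the reads of Rps27 and its copy, the protein-coding Rps27rt, lay on the copy. Rpl7l1, which acts in ribosome assembly, had a ratio to Rpl7 of 0.049 ± 0.0156 in responsive control cells and 0.0553 ± 0.027 in control cluster 1 cells, while in E2 cells it was 0.0412 ± 0.0113 and 0.0204 ± 0.0249. The ratio was higher in cluster 1 in 8 of 17 libraries. The paralogs of Rpl3, Rpl10 and Rpl39 (Rpl3l, Rpl10l and Rpl39l) were not analysed here, and Rps4l, named after Rps4x, is a pseudogene in the annotation.

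**Figure D4:**
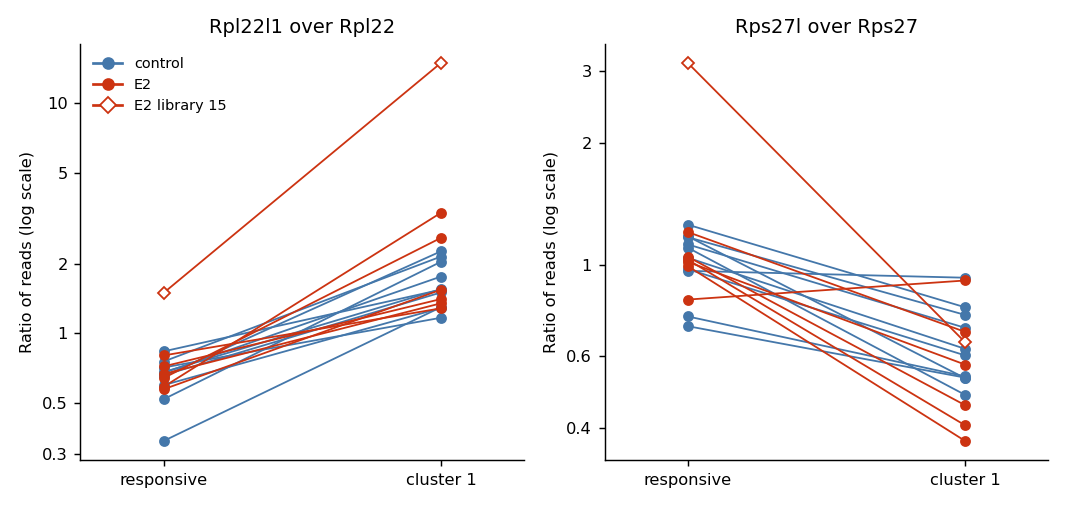
Ratio of reads of Rpl22l1 over Rpl22 (left) and Rps27l over Rps27 (right) on log axes, in responsive and cluster 1 cells of the same library, joined by a line. Blue lines are 10 control libraries and red lines 7 E2 libraries, with library 15 as open diamonds. The left lines all rise, and 16 of 17 lines on the right fall.

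Rpl15 (chr14:18267823-18271391), with the longest pyrimidine run of the starts shown, was at 899, 1017 and 1175 CPM in responsive control libraries and at 526, 668 and 813 CPM in control cluster 1. In E2 libraries it was at 850, 1062 and 1380 CPM and at 212, 537 and 702 CPM. Neither pair of ranges overlapped, and all 17 libraries were lower in cluster 1. The log2 fold change was -0.81 (SE 0.12, adjusted p = 1.6e-06 in edgeR), and -0.75 without library 15.
Rpl35a (chr16:33056453-33060189, -0.67, SE 0.137) and Rpl24 (chr16:55966275-55971435, -0.59, SE 0.132) were also lower in 17 of 17 libraries. Without library 15 these were -0.66 and -0.59. Rpl35a was at 547, 689 and 806 CPM in responsive and at 298, 422 and 631 CPM in cluster 1 control libraries. In control libraries Rpl24 was at 811, 926 and 1175 CPM in responsive cells and at 360, 551 and 777 CPM in cluster 1. Its E2 cluster 1 libraries were at 297, 704 and 1063 CPM. The fold changes of Rpl24 were -0.77 (SE 0.132) within control and -0.29 (SE 0.239) within E2 libraries, a difference that was not called in the interaction (adjusted p = 0.549 in edgeR). Rpl19 (chr11:98026710-98030492, -0.51, SE 0.107) lost its call in 15 of the 19 fits that left out 1 library, all but those without control libraries 6 or 10 or E2 libraries 11 or 15. It was called in 6 of 10 settings. Its near copy held 29.8% of the reads of both, and with that copy added Rpl19 was at -0.49 and lost its call.

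Rpl5 and Rpl11, partners in the 5S particle, moved in opposite directions. Rpl11 (chr4:136028265-136053428, minus strand) was at 549, 594 and 646 CPM in responsive control libraries and at 266, 388 and 611 CPM in control cluster 1, with a log2 fold change of -0.54 (SE 0.112, adjusted p = 0.000411 in edgeR). Rpl5 was at 757, 957 and 1131 CPM and at 926, 1528 and 1975 CPM in the same order, with 0.56 (SE 0.102, adjusted p = 6.11e-05). With near copies added, Rpl11 was at -0.55 and Rpl5 at 0.54. Rpl11 lost its call with library size only (-0.40), with DESeq2 and without control library 3 or E2 libraries 16, 17 or 19.

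**Figure D5:**
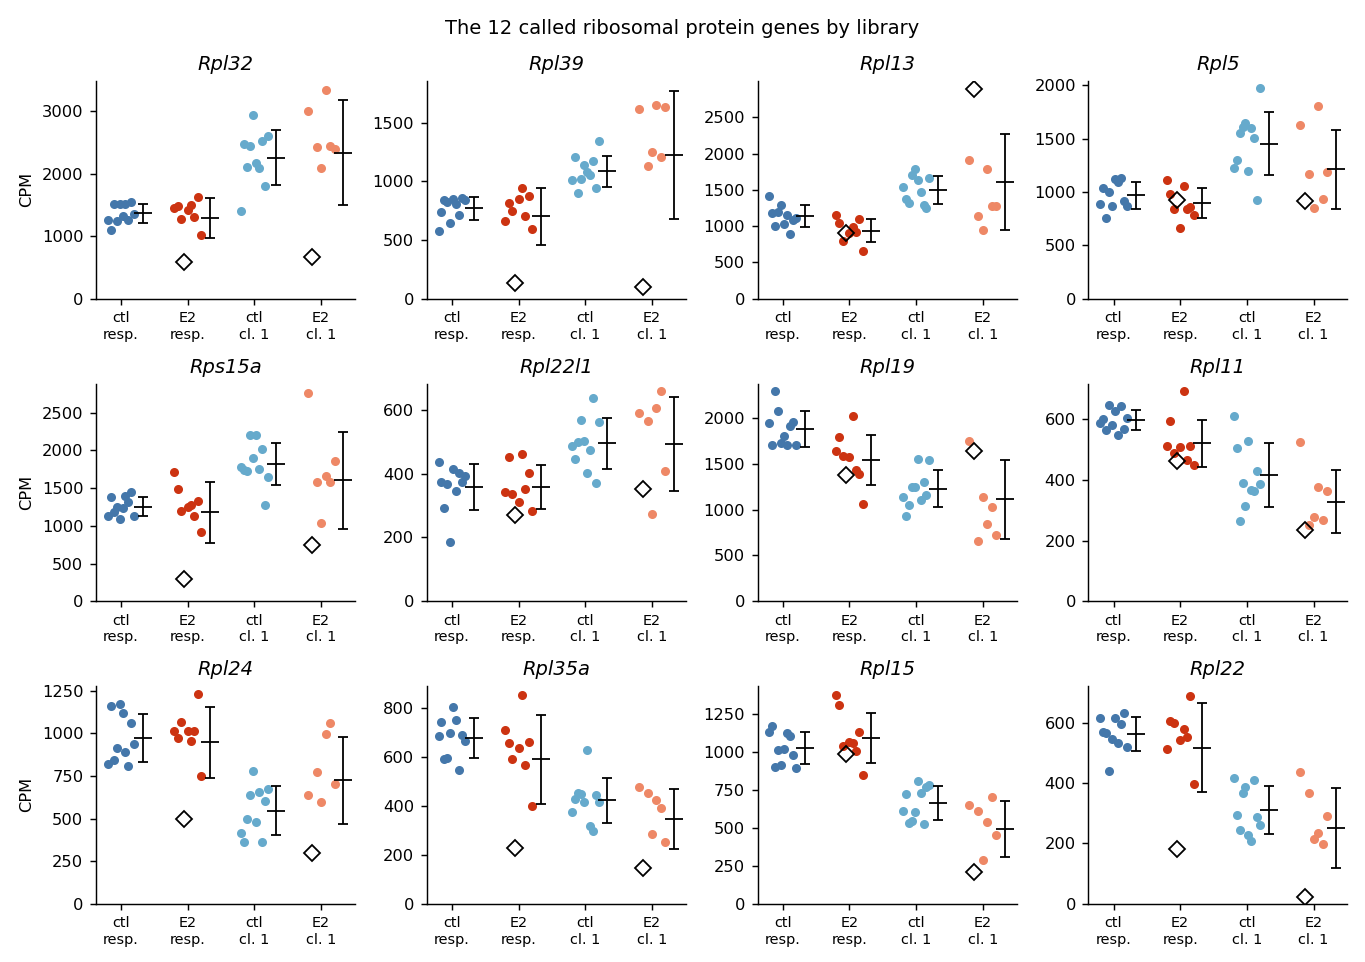
CPM (y axes, from 0) of the 12 called members in each library, by condition and group of cells, ordered from the highest log2 fold change to the lowest. Points are libraries, open diamonds are E2 library 15, and bars give mean and SD. Rpl32 is higher and Rpl22 and Rpl15 are lower in cluster 1 under both conditions.

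With no limit on the fold, 27 members had an adjusted p under 0.05, where 6.4% of all genes were higher and 10.3% lower at that threshold. Without library 15 there were 47 such members, 21 higher and 26 lower, beside 7.21% and 11.1% of all genes. Rpsa was lower in cluster 1 in 16 of 17 libraries (-0.43, SE 0.0842, adjusted p = 0.000162 in edgeR). Rps6 was higher in 16 of 17 (0.50, SE 0.112, adjusted p = 0.00107) and lay at the fold limit, so that it was called in 5 of 10 settings and in 18 of the 19 fits that left out 1 library. Among the P stalk genes Rplp1 was at -0.41 (SE 0.156), lower in 16 of 17 libraries. Rplp2 was at 0.25 (SE 0.137), higher in 15 of 17, and Rplp0 was at 0.06 (SE 0.109), higher in 9 of 17. None of the 3 was called.
Of the 12 called, 10 were large subunit genes of 43, 1 was a small subunit gene of 29 and 1 was a paralog.

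With control and E2 libraries fitted apart, which share no cells, 71 of 78 members had the same sign, beside 68.0% of the 9180 genes tested in both, and the Pearson correlation of the 2 log2 fold changes was 0.87 across members and 0.58 across all genes. These are descriptions across genes. The members also have more reads than most genes. All 12 called members had the same sign in both fits, but they were picked in the fit of both conditions together. The cluster labels also came from all cells at once, so this agreement is no independent evidence.
Cluster 1 cells had fewer reads (a median of 112126 and 87632 per cell in control and E2) than responsive cells (143233 and 117809) and a higher share of mitochondrial reads (2.53% and 3.55% against 2.08% and 2.43%). Within a group of cells the share of reads on members fell with depth, with a correlation to log10 reads from -0.36 to -0.12 across cells. With each cell thinned to 20000 reads, all 12 members kept their call.

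Genes of the wider translation system were counted in the same fits. Of 20 other translation genes, none was called for E2 in either group of cells. Between the clusters 2 were higher and 5 lower in cluster 1, where 6.12% of all 10597 genes were called higher and 9.81% lower. Rps3a1 (0.58, SE 0.123) and the elongation factor Eef1g (0.53, SE 0.114) were higher. Tpt1, a growth-linked message with its own pyrimidine tract, was lower (-0.84, SE 0.0933), at 3358 ± 336 CPM in responsive and 1682 ± 298 CPM in cluster 1 control cells. Rpl36al (-0.79, SE 0.142), Eef1d (-0.62, SE 0.195), Eif3h (-0.57, SE 0.181) and Eif3e (-0.51, SE 0.181) were lower as well. The list's median was -0.29, beside -0.06 over all genes. Without library 15 only Rps3a1, Tpt1 and Rpl36al stayed called, and with library size only Eef1d, Eif3e and Eif3h lost their call.

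Of 25 ribosome biogenesis genes, 25 were tested for E2 in responsive cells and 22 in cluster 1, and none was called. In responsive cells the list's median with E2 was 0.08, beside 0.02 over all genes, with 11 of 25 negative. In cluster 1 it was -0.48, beside -0.06 over all genes, with 19 of 22 negative. These medians include library 15 and were not tested. Between the clusters Polr1a, the largest subunit of RNA polymerase I, was higher (1.34, SE 0.409) and Nhp2 lower (-0.87, SE 0.267) in cluster 1. The list's median between the clusters was -0.31, beside -0.06 over all genes, with 19 of 25 negative. Of all genes 6.12% were called higher and 9.81% lower in that comparison. With library size only Nhp2 lost its call. DESeq2 called 2 higher and 4 lower, adding Gar1, Ltv1, Nolc1 and Rrp9, and the fit without library 15 called 2 in each direction, adding Nolc1 and Rrp9.
Of 17 genes listed as regulators of ribosomal protein synthesis, 16 were tested in responsive cells and none was called for E2 there. In cluster 1, 14 were tested and the kinase Rps6ka4 was called lower with E2, where 0.048% of all 8340 genes were. It was at 73.1 ± 42.3 CPM in control and 3.39 ± 3.40 CPM in E2 libraries. Whether this kinase acts on ribosomal proteins in these cells was not tested. Myc was called lower in cluster 1 than in responsive cells, at 4.18 ± 3.33 CPM and 0.338 ± 0.564 CPM in control libraries, and it had no read in E2 cluster 1 libraries. Without library 15 both stayed called, and Deptor and Rheb were called between the clusters as well.

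The 77 mitochondrial ribosomal protein genes, which build the separate ribosome of that organelle, had no call for E2 in edgeR. Between the clusters 3 were higher, Mrps25 (1.28), Mrps33 (0.94) and Mrpl51 (0.73), and 12 were lower. Over all genes 6.12% were called higher and 9.81% lower. The lowest log2 fold changes were those of Mrps16 (-1.34), Mrpl40 (-1.25), Mrpl57 (111 ± 40.2 CPM in responsive and 51.9 ± 26.4 CPM in cluster 1 control cells), Mrps24 (-0.97) and Mrpl52 (-0.91). The median was -0.38 and 52 of 77 were negative, beside a median of -0.06 over all genes and of -0.01 over the cytoplasmic members. Without library 15 there were 3 higher and 14 lower, and with library size only 3 and 7. DESeq2 called 1 of these genes, Mrpl17, higher with E2 in responsive cells.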

How the data were processed

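Single cells of 19 chip columns were prepared with a 3′ end protocol, and each column was 1 sample. Per the labels, reads were quantified with kallisto 0.44.0. What the authors deposited are estimated counts of genes in cells that passed their filters, not normalized, of which 66.9% of values above 0 were whole. Reads shared by near-identical transcripts are divided between them, so a member and its copies can trade reads. The deposited metadata also hold the percent of mitochondrial reads, a size factor given as a ratio, and cluster labels for 2 clusters. A ribosomal gene set in these metadata was 0 in every cell and was not used, nor were the imputed values. The submitters' processing notes name GRCm38 as the build. Symbols, positions and transcripts came from GENCODE M21 (GRCm38), and 14150 of 14299 genes had a symbol.

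Counts were rounded and summed over the cells of each library and cluster (at least 3 cells). Library totals ranged from 3867791 to 5078340 in control and from 2693258 to 4037847 in E2 libraries. Reads and not molecules were counted, so totals overstate the precision, and the spread between libraries was used instead. All genes were fitted with the quasi-likelihood test of edgeR 4.0.16 (R 4.3.3) after TMM scaling and its expression filter, and p-values were adjusted after Benjamini and Hochberg. A gene was called where the adjusted p was below 0.05 and the log2 fold change beyond 0.5 in either direction. SEs were derived from the F statistic, and 95% intervals use the normal quantile, which makes them slightly narrow. The fits were also run on simulated counts. Those held no library unlike the others and no link between the clusters of a library, so they cannot show how the fits handle either.

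The alternatives were DESeq2 1.42.0, library size only, TMM without the members, no filter, 20000 reads per cell, at least 5 cells per sum, k-means labels (10 principal components, without the members) and a library block. Adding near copies and leaving out each library were chosen after seeing the data. Named genes are called members (up to 12 per direction), the P stalk, Rpsa, Rps6, Rpl5, Rpl11, Rps3, Rpl13a, the paralog pairs, the 5 highest and 5 lowest members, and called genes of the other lists (up to 5 per direction). The members, lists and rules were chosen with earlier results of these data known.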

Additional observations from a re-analysis of the deposited data

Results flagged for a closer look

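In 60 groups of libraries tested for a sample far from the others (shares of reads, the Rpl22l1 to Rpl22 ratio, and CPM of the 12 called members and Rpsa), 8 were flagged. Chance flags about 1 in 20 groups, and 6 of the 8 fell on E2 library 15. In that library the share of reads on members was 5.87% in responsive cells and 5.25% in cluster 1, the Rpl22l1 to Rpl22 ratio was 1.5 and 15.0, and Rpl39 was at 132 CPM and 104 CPM. In responsive cells its difference from the other E2 libraries went with transcript length across the members, and its part in each count of calls is given in the report.

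The other 2 were control libraries. Library 5 had 11.0% of its reads on members in responsive cells, the highest of the 10, and library 6 had 631 CPM of Rpl35a in cluster 1, where the other control libraries were lower.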

How the results depend on the processing

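No member was called for E2 in either group of cells or for the interaction under any alternative or with any library left out. Between the clusters the calls were 16 with DESeq2 or library size only, 13 with TMM without the members, 11 with no filter, 13 after thinning, 16 with at least 5 cells per sum, 15 with k-means labels and 14 with near copies, beside 12. Over all 10597 genes the calls were 2316 with DESeq2, 1708 with library size only and 1682 with TMM without the members, beside 1689. They were 2205 of 14290 genes with no filter, 1364 of 6500 after thinning and 1775 of 10769 with at least 5 cells per sum. With k-means labels they were 1765 of 10573, and with near copies 1675 of 10523. The members' median there was 0.13 with library size only, beside -0.01. With 1 library left out the calls ranged from 13 to 16 and the median from -0.04 to 0.05, while calls over all genes ranged from 1561 to 1785. The medians for E2 ranged from -0.17 to -0.06 in responsive cells and from -0.13 to 0.03 in cluster 1, and the value nearest to 0 in responsive cells came without E2 library 15. In cluster 1 only the 17 libraries with a sum could be left out.

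With the library as a block, 14 members were called between the clusters, including all 12, with 7 higher and 7 lower and a median of -0.01, and no interaction was called. Of all 10597 genes, 368 were called higher and 1471 lower between the clusters in that fit, and their median was -0.40. No paired analysis was possible for E2 against control because the replicate numbers are chip columns, which the conditions do not share.

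The share of reads moved beyond its SD only where copies were counted. With named pseudogenes added it was 11.2% in responsive and 11.9% in cluster 1 control cells. With near copies added it was 12.5% and 13.3% there, and 11.4% in responsive E2 cells. No member called between the clusters reversed its sign. Members that were not called did so for E2 without library 15, such as Rps6 in responsive cells (0.02 to -0.06) and in cluster 1 (0.27 to -0.07).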
